A study of Rattus norvegicus with 6 samples.

Results

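The genes described here are 8 rat genes of the p53 response, growth arrest and apoptosis: Mdm2, Cdkn1a, Ccng1, Gadd45a, Gadd45b, Bcl2l1, Fas and Bax. They were found on the array by gene symbol: a probe set, the group of short oligonucleotides that reports 1 transcript, was taken if the platform annotation gave it 1 of these symbols and no other. This gave 14 of the 31099 probe sets on the array, for 7 of the 8 genes. Bax is annotated only on a probe set that carries several gene symbols, so it was not analysed here.

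Expression was measured in kidneys of 6 male rats, 3 of the Dahl salt-sensitive strain (Dahl S) and 3 of the Lewis strain, with 1 array per rat. All 6 rats, of both strains, were fed a diet with 8% NaCl that began at 5 weeks of age and lasted 8 weeks. The Dahl S rat is an inbred model that becomes hypertensive when fed salt, and the Lewis rat is another inbred strain, so the comparison asks how gene expression differs between salt-fed kidneys of these strains. No kidneys of rats fed less salt were analysed here, and an inherited difference between the strains cannot be told apart from a difference in their response to salt. The RNA came from kidney tissue as a whole, in which fewer cells of a type and less RNA per cell cannot be told apart.

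p53 is a transcription factor that is held at a low level by the ubiquitin ligase Mdm2 and is stabilised by DNA damage and other stresses. It then switches on genes that stop the cell cycle, such as the cyclin-dependent kinase inhibitor Cdkn1a (p21), genes of DNA repair and stress signalling, such as Gadd45a, and genes that promote cell death, such as Bax and the death receptor Fas. Mdm2 is itself a p53 target, which closes a negative feedback loop. In the kidney, p53 and p21 are known for their activation in tubular cells after ischaemic and toxic injury. Bcl2l1 encodes Bcl-xL, which holds Bax in check at the mitochondrial membrane.

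The arrays differed in brightness as deposited. The 2% trimmed mean signal of an array lay between 205 and 250 in Dahl S and between 119 and 230 in Lewis. Values are therefore given as quantile-normalized log2(signal + 16), on which a strain difference is relative to the typical probe set. Over the probe sets tested, 2 arrays of Dahl S correlated at 0.991 to 0.993 and 2 arrays of Lewis at 0.980 to 0.988, and arrays of different strains at 0.958 to 0.970. As the marker genes show, the tissue was kidney: 15 of 16 epithelial markers had a tested probe set. Their summed normalized signal was 60000 to 61280 in Dahl S and 63330 to 64240 in Lewis.

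Only probe sets brighter than the overall median on 3 or more of the 6 arrays were tested. Of the 14 probe sets, 9 passed this filter, for 6 genes, and 5 did not, among them all 3 of Fas. The strains were compared by limma with Benjamini-Hochberg adjustment over all 15800 probe sets tested, and a difference passed at an adjusted p under 0.05. Of the 9 probe sets, 0 were higher in Dahl S, against 8.51% of all probe sets tested, and 1 was lower, against 7.73%. At an unadjusted p under 0.05, limma called 2 of the 9, Ccng1 higher and Gadd45a lower. By the same unadjusted threshold, 1502 of all 9540 genes tested were higher and 1368 lower. The strain ranges lay apart for 3 of the 9 (33.3%), against 34.5% of all probe sets tested. The median difference of the 9 was -0.15 on the log2 scale, against 0.00 for all probe sets, with 7 differences below 0 and 2 above. These differences are not independent, since 3 of the probe sets read Mdm2 and 2 read Bcl2l1, all of them below 0. Gadd45a was thus the only one of these genes called between the strains, and the share called was near that of the array as a whole.

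The Gadd45a promoter is shown because Gadd45a carried that difference. Below are the 250 bases upstream of its annotated start, read from RefSeq (GRCr8, chr4:97486800-97487049, minus strand), 5′ to 3′, with motif matches in capitals.
Gadd45a: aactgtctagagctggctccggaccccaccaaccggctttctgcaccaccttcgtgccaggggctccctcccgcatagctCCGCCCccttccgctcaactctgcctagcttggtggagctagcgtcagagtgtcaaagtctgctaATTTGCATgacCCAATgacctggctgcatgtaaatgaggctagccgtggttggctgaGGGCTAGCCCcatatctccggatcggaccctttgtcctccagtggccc
Counted from the annotated start, these are GGGCGG on the opposite strand at -170, the octamer ATTTGCAT at -105, CCAAT at -94 and a match to the p53 decamer, the repeat of which p53 binds a pair, at -48. The motifs do not overlap one another. Both strands of each of 33469 rat promoter windows of this length were searched for 8 motifs. GGGCGG occurred in 30.5% of them, CCAAT in 34.0%, a p53 decamer in 6.64% and ATTTGCAT in 1.56%. The other motifs searched were TATAAA (12.9% of all windows), TGACGTCA (1.59%), CACGTG (5.59%) and the full p53 response element of 2 decamers (0.0388%), and none of these letters is in the Gadd45a window. A p53 decamer was also found upstream of Cdkn1a at -201 and of Ccng1 at -232, and in none of the windows of Mdm2, Gadd45b, Bcl2l1 and Fas. These are matches of letters in windows of limited length and say nothing of binding.

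Gadd45a, a stress sensor that binds PCNA and Cdk1 and activates the p38 and JNK pathway through Mekk4, fell in Dahl S kidneys. Its normalized log2 values were 9.83, 10.00 and 9.88 in Dahl S, against 10.20, 10.21 and 10.38 in Lewis. Every Dahl S kidney was below every Lewis kidney. The mean was 9.90 ± 0.08 in Dahl S and 10.26 ± 0.10 in Lewis (SD, n = 3 each). The difference was -0.36 (SE 0.08, 95% interval -0.53 to -0.19), or 1.28-fold lower in Dahl S, with a limma adjusted p of 0.0085. The exact two-sided permutation test of this probe set alone gave p = 0.1, the smallest that 3 against 3 arrays can give. The call was lost without the first Dahl S array (-0.33, adjusted p = 0.053), and the deposited signals without normalization gave 0.05 (adjusted p = 0.90), beside a median shift of all probe sets of 0.41.

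Gadd45b is the relative of Gadd45a that responds to TNF and TGF-beta. It had 6.73, 6.72 and 6.63 in Dahl S, against 6.70, 7.00 and 7.15 in Lewis, on the same scale. The lowest Lewis kidney lay within the Dahl S range and the other two lay above it. The difference was -0.26 (SE 0.14, 95% interval -0.55 to 0.04, adjusted p = 0.23) and did not pass the test. Without that Lewis array, the first, the difference was -0.39 with an adjusted p of 0.0503. Gadd45g, the third gene of the family, differed by 0.29 (SE 0.10, adjusted p = 0.076), and by 0.38 (adjusted p = 0.042) without the second Dahl S array. The 3 relatives therefore had differences of both signs in these kidneys, of which only that of Gadd45a passed with all 6 arrays.

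Cdkn1a encodes p21, the inhibitor of cyclin-dependent kinases through which p53 halts the cell cycle in G1. Its tested probe set, 1388674_at, had 7.18, 7.41 and 7.50 in Dahl S, against 7.25, 7.33 and 7.21 in Lewis. The lowest of all 6 values and the highest both came from Dahl S. The strains overlapped, with means of 7.36 ± 0.17 in Dahl S and 7.26 ± 0.06 in Lewis (SD, n = 3 each). The difference was 0.10 (SE 0.11, adjusted p = 0.60), and the 95% interval ran from -0.15 to 0.35, that is from 0.90-fold to 1.27-fold. Leaving out 1 array gave 0.03 without the third Dahl S array, 0.19 without the first, and values between these without any other. The other Cdkn1a probe set, 1387391_at, was below the filter, with 6.01, 5.98 and 6.12 in Dahl S and 5.68, 6.22 and 5.76 in Lewis. Its groups overlapped too (exact permutation p = 0.4).

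Across the 6 arrays, the probe sets most like Cdkn1a 1388674_at were those of Hdac3, a histone deacetylase (Pearson r = 0.96), Tubgcp2, a subunit of the gamma-tubulin complex (r = 0.95), and Nsrp1, a splicing regulator (r = 0.94). These were the highest among the tested probe sets of other named genes, over 6 arrays of 2 strains, and are given as a description. None of them had a strain difference above 0.13.

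Ccng1 encodes cyclin G1, a p53 target that recruits the phosphatase PP2A to Mdm2. It had 10.12, 10.15 and 10.09 in Dahl S, against 9.99, 9.97 and 9.96 in Lewis. All Dahl S kidneys lay above all Lewis kidneys, and each strain spanned less than the gap between them. The difference was 0.15 (SE 0.07, 95% interval 0.01 to 0.30), or 1.11-fold, and did not pass the limma test after adjustment (adjusted p = 0.15). It stayed within 0.14 and 0.17 when any 1 array was left out.

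Mdm2, the ligase that marks p53 for degradation, was read by 3 tested probe sets. Probe set 1383288_at had 8.83, 8.82 and 8.72 in Dahl S, against 8.93, 8.87 and 8.84 in Lewis. The highest Dahl S value lay just below the lowest Lewis value, with a difference of -0.09 (SE 0.08, adjusted p = 0.51). Probe set 1384427_at had 8.14, 7.92 and 7.98 in Dahl S and 8.12, 8.10 and 8.14 in Lewis, a difference of -0.11 (SE 0.09, adjusted p = 0.49). Probe set 1383485_at had 6.48, 6.39 and 6.89 in Dahl S and 6.79, 6.54 and 6.88 in Lewis, a difference of -0.15 (SE 0.16, adjusted p = 0.57). The strains overlapped on these last probe sets. All 3 differences of Mdm2 were below 0, none passed the test, and the interval that reached furthest from 0 ended at -0.49. When 1 array was left out, the differences ran from -0.30 (without the third Dahl S array) to -0.05 (without the second) for 1383485_at, from -0.17 (without the first) to -0.06 (without the second) for 1384427_at, and from -0.11 to -0.05 (without the third) for 1383288_at.

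Bcl2l1, whose main product Bcl-xL protects mitochondria from Bax and Bak, was read by 2 tested probe sets. Probe set 1370812_at had 8.55, 8.77 and 8.57 in Dahl S, against 9.24, 8.73 and 8.74 in Lewis, a difference of -0.27 (SE 0.13, adjusted p = 0.19). Probe set 1370485_a_at had 7.58, 7.70 and 7.34 in Dahl S, against 8.02, 7.78 and 7.65 in Lewis, also a difference of -0.27 (SE 0.13, adjusted p = 0.17). On both, the first Lewis kidney was the highest of all 6 and the strains overlapped. Without that array the differences were -0.11 for 1370812_at and -0.17 for 1370485_a_at. Without the third Dahl S array that of 1370485_a_at was also -0.17, and over all fits that left 1 array out the lowest value was -0.36 for each. The third probe set, 1369180_at, was below the filter and had 5.19, 5.07 and 4.99 in Dahl S against 5.16, 5.21 and 5.22 in Lewis.

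**Figure D1:**
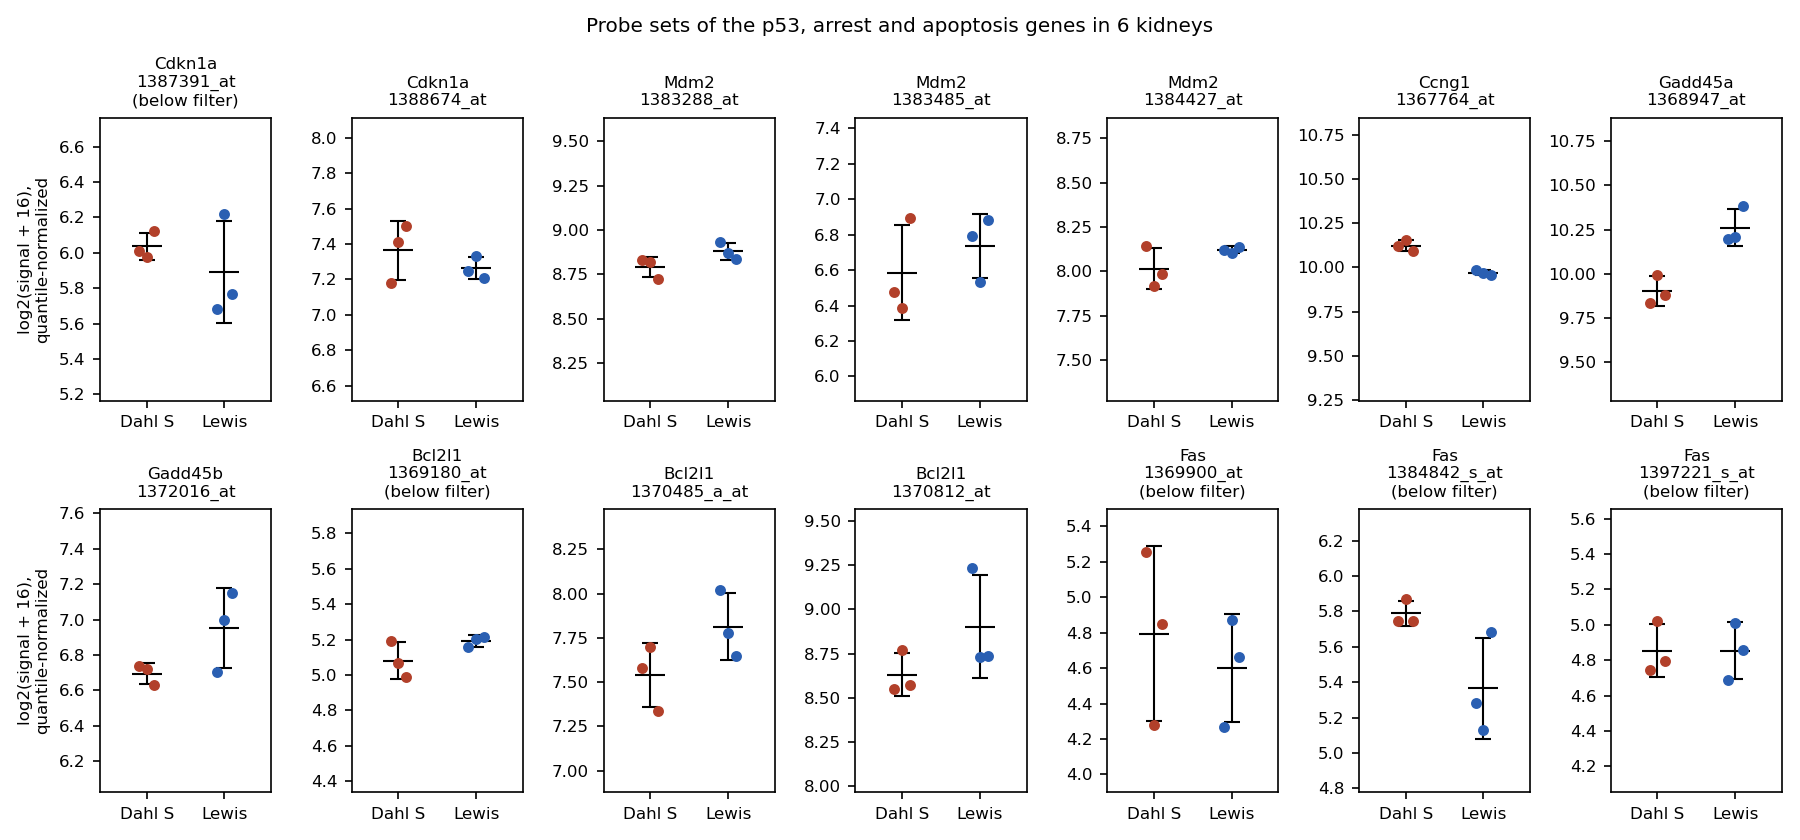
Quantile-normalized log2(signal + 16) of the 14 probe sets in 3 Dahl S kidneys (red, left) and 3 Lewis kidneys (blue, right), each panel spanning the same range on its y axis. Points are single arrays, black bars the mean and SD. The points of the strains lie apart for Gadd45a, lower in Dahl S, for Ccng1 and Fas 1384842_s_at, higher, and narrowly for Mdm2 1383288_at.

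Fas, the receptor that starts the extrinsic death pathway when it meets Fas ligand, was dim on this array. All 3 of its probe sets lay below the filter, so they were left out of the main limma fit. On probe set 1384842_s_at the deposited signal was 42.5, 56.0 and 37.4 in Dahl S, against 15.3, 21.6 and 31.4 in Lewis. In normalized log2 values this was 5.75, 5.87 and 5.75 in Dahl S and 5.28, 5.13 and 5.68 in Lewis, a difference of 0.42. All Dahl S kidneys lay above all Lewis kidneys, with an exact permutation p of 0.1, the smallest possible. When the filter was dropped and all probe sets were tested, the limma adjusted p was 0.24. The size depended on the pseudocount: it was 0.64 with a pseudocount of 1 and 0.21 with 64. The other probe sets did not repeat the separation: 1369900_at had signals of 24.3, 4.5 and 11.9 in Dahl S and 2.2, 15.0 and 8.7 in Lewis, and 1397221_s_at had 11.7, 21.7 and 10.9 in Dahl S and 6.6, 18.4 and 12.1 in Lewis. Fas ligand (Faslg) was below the filter as well, with signals of 21.1 to 32.8 in Dahl S and 13.1 to 36.5 in Lewis.

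**Figure D2:**
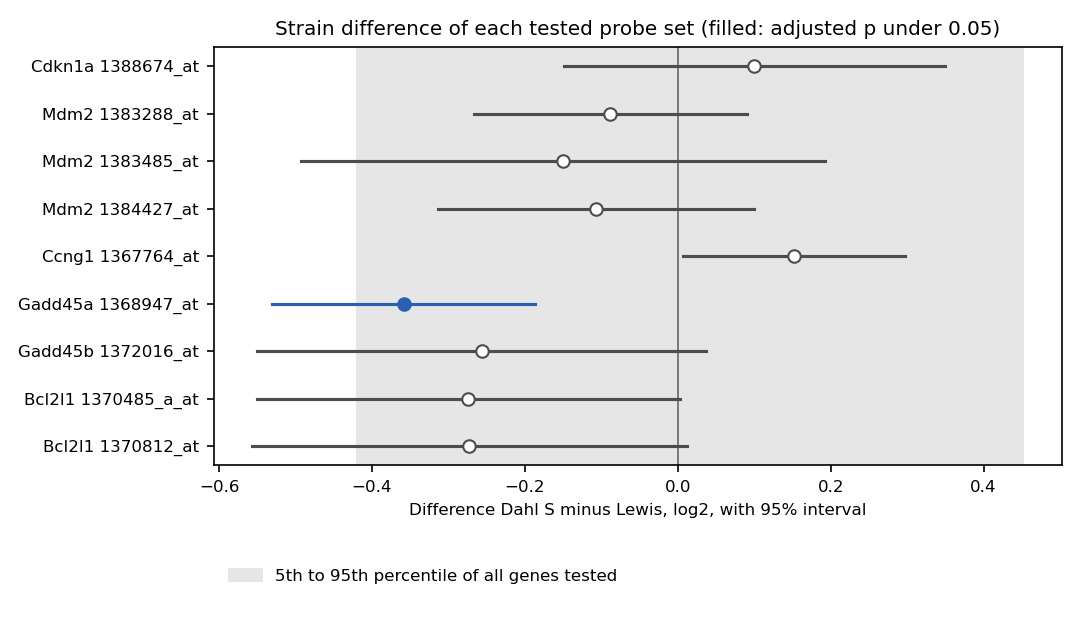
Difference in log2 signal, Dahl S minus Lewis, of the 9 tested probe sets, with the 95% interval of the limma fit. The filled blue point marks Gadd45a at -0.36, the only one with an adjusted p under 0.05. The grey band holds the 5th to 95th percentile of the differences of all 9540 genes tested, -0.42 to 0.45, and all 9 points lie inside it.

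Leaving out normalization moved all 9 probe sets upward, whereas scaling to a common median moved them by small amounts in both directions. Scaled to a common median in place of quantile normalization, Gadd45a differed by -0.38 (adjusted p = 0.017), and the other 8 kept their signs without passing the test. In the deposited signals without normalization, all 9 differences were above 0, from 0.05 for Gadd45a to 0.56 for Ccng1, while the median of all probe sets tested was 0.41. Relative to that median, only Cdkn1a at 0.51 and Ccng1 at 0.56 lay above it.

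**Figure D3:**
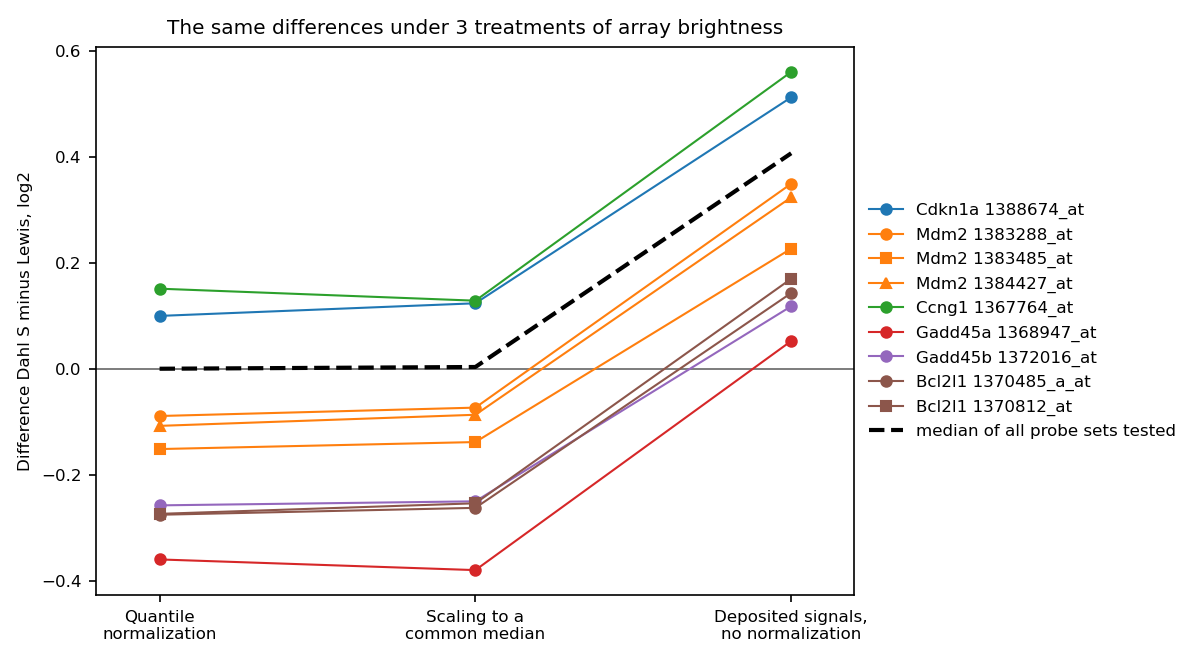
Difference in log2 signal, Dahl S minus Lewis, of the 9 tested probe sets (1 colour per gene, 1 marker per probe set) under 3 treatments of array brightness, with the median of all probe sets tested as a dashed line. Gadd45a is the lowest line under each treatment, at -0.36, -0.38 and 0.05, and all lines shift upward with the median when the arrays are not brought to a common level.

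The wider pathway was read through 8 lists with 137 other genes, of which 90 had a tested probe set with their symbol alone. Where several did, the one with the highest mean stood for the gene. Of these 90 genes, 9 rose and 5 fell in Dahl S, and 76 did not pass the test. Over the 9540 genes tested, 9.04% were higher and 7.59% lower, so the called share of the lists, 15.6%, was close to the 16.6% of all genes. Their median difference was 0.08, against 0.00 for all genes.

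Of the p53 regulators, 10 of 18 genes were measured and 0 were called in either direction by limma, against 16.6% of all genes. At an unadjusted p under 0.05, 1 was higher, beside 1502 of all 9540 genes. Mdm4, the partner of Mdm2 that masks the transactivation domain of p53, differed by 0.01 (SE 0.12, adjusted p = 0.98). The 10 differences ran from -0.08, for the kinase Hipk2, to 0.28.

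Of 35 other p53 targets, 21 were measured, 0 rose and 2 fell, Zmat3 and Epha2 (9.52% called, against 16.6% of all genes). Zmat3, which encodes an RNA-binding protein that acts in splicing, had 7.24, 7.28 and 7.27 in Dahl S, against 7.76, 7.78 and 7.74 in Lewis. The strains lay far apart relative to their spread, with a difference of -0.50 (SE 0.10, adjusted p = 0.0035), and Zmat3 passed without any 1 of the arrays. Epha2, an ephrin receptor, differed by -0.53 (SE 0.14, adjusted p = 0.023), but not without the second (-0.39, adjusted p = 0.10) or the third Dahl S array (-0.56, adjusted p = 0.057). The stress cytokine Gdf15 differed by 0.35 (adjusted p = 0.095), and the cell cycle inhibitor Sfn (14-3-3 sigma) by 0.33 (adjusted p = 0.12). The others lay between -0.24 for Aen and 0.24 for Dram1. The median of the list was 0.02. At an unadjusted p under 0.05, 5 genes were higher and 2 lower, beside 1502 higher and 1368 lower of all 9540 genes.

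Of 18 other growth arrest genes, 15 were measured, with 3 higher and 1 lower (26.7% called, against 16.6% of all genes). Their median was 0.08. Btg1, an antiproliferative gene abundant in quiescent lymphocytes, had 11.92, 11.99 and 12.01 in Dahl S, against 11.65, 11.65 and 11.59 in Lewis. Its difference was 0.35 (SE 0.05, adjusted p = 0.00095), and 0.19 (adjusted p = 0.14) when arrays were scaled to a common median. Cdkn3, a phosphatase that acts on Cdk2 and whose mRNA is highest in dividing cells, had 7.06, 6.93 and 6.98 in Dahl S, against 6.36, 6.29 and 6.40 in Lewis. That is a difference of 0.64 (SE 0.12, adjusted p = 0.0028) with no overlap. The chromatin regulator Ing1 differed by 0.30 (SE 0.09, adjusted p = 0.040), but its second probe set differed by -0.01 (adjusted p = 0.97), and the call was lost without any 1 array other than the first of Lewis. Tob2, which recruits the deadenylase that shortens mRNA tails, had 8.05, 7.82 and 7.78 in Dahl S, against 8.75, 8.41 and 8.30 in Lewis, a difference of -0.61 (SE 0.13, adjusted p = 0.0058). Cdkn1b (p27), the relative of Cdkn1a that keeps resting cells out of the cycle, differed by 0.09 (adjusted p = 0.68).

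Some genes of dividing cells were higher beside these. Of 26 proliferation genes, 19 were measured, 7 rose, 0 fell and 12 did not pass, with a median of 0.22. The called share was 36.8%, against 16.6% of all genes. Some were dim in Lewis, such as Mcm3, with 6.43, 6.60 and 6.65 in Dahl S and 5.77, 6.14 and 5.67 in Lewis. Such genes can pass the filter through the Dahl S arrays alone. Mki67, which marks cycling cells, differed by 0.76 (SE 0.13, adjusted p = 0.0013), cyclin D2 (Ccnd2) by 0.61 and the replication licensing factor Mcm6 by 0.84. The brightest probe set of cyclin D1 (Ccnd1) differed by -0.09 (adjusted p = 0.58), another by -0.12 (adjusted p = 0.30), and the last fell by 0.26 (adjusted p = 0.039), so its probe sets disagreed on the call. The summed normalized signal of the 19 genes was 6184 to 6469 in Dahl S and 5441 to 6024 in Lewis. With the stricter filter, which asks for values above the upper quartile, 1 of the proliferation genes was called. That filter tested 7967 probe sets in place of 15800, so dim genes were left out. With no filter, 9 of the proliferation genes were higher and 0 lower.

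In the mitochondrial pathway, 8 of 14 pro-apoptotic BCL2 relatives were measured, and limma called 0 of them, against 16.6% of all genes. At an unadjusted p under 0.05, 1 was higher, beside 1502 of all 9540 genes. Bbc3 (Puma), a p53 target that frees Bax and Bak, differed by 0.27 (adjusted p = 0.12). Bak1 was below the filter, with signals of 48.1 to 76.2 in Dahl S and 42.8 to 84.7 in Lewis. Of 9 pro-survival genes listed with Bcl2l1, 7 were measured, 1 rose and 0 fell (14.3% called, against 16.6% of all genes). The median of this list was -0.04. Bag1, Bag3, Bag4 and Tmbim6 on that list do not belong to the BCL2 family. Its measured members there were Bcl2a1, Mcl1 and Bcl2l2, the last with a difference of 0.22 (adjusted p = 0.16). The gene that rose was Bcl2a1, a survival factor best known in leukocytes, with 6.66, 6.75 and 6.83 in Dahl S, against 5.54, 5.64 and 6.14 in Lewis. Its difference was 0.97 (SE 0.17, adjusted p = 0.0020), or 1.96-fold, and with any 1 Dahl S array left out it no longer passed the filter and was not tested. A second probe set of Tmbim6 (Bax inhibitor 1) fell by 0.16 (adjusted p = 0.046), while the one that stood for the gene differed by -0.05 (adjusted p = 0.55). Mcl1 differed by 0.13 (SE 0.06, adjusted p = 0.19), and Bcl2 was below the filter, with signals of 36.1 to 38.9 in Dahl S and 27.2 to 42.6 in Lewis.

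Of 18 genes of death receptor signalling, 13 were measured, 3 rose and 2 fell (38.5% called, against 16.6% of all genes). Their median was 0.04. Tnfrsf12a, the receptor of the cytokine TWEAK that is known to be induced in injured tissue, had 8.70, 8.70 and 8.76 in Dahl S, against 7.58, 7.35 and 7.24 in Lewis. It differed by 1.33 (SE 0.11, adjusted p = 4.6e-06), or 2.52-fold, the largest difference of the 90 genes. Casp8, the initiator caspase that Fas activates through the adaptor Fadd, had 7.75, 7.59 and 7.74 in Dahl S, against 6.69, 6.90 and 6.93 in Lewis. It differed by 0.85 (SE 0.11, adjusted p = 0.00025), or 1.80-fold, and its second probe set differed by 0.68 (adjusted p = 0.0030). Both genes passed without any 1 of the arrays and had no overlap between the strains.

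Faim, an inhibitor of death by Fas, differed by 0.40 (SE 0.11, adjusted p = 0.031), a call that was lost without any 1 of the Dahl S arrays (adjusted p between 0.064 and 0.14) or the second Lewis array (0.31, adjusted p = 0.10). Tnfrsf21, death receptor 6, fell by 0.40 (SE 0.08, adjusted p = 0.0050), and its second probe set differed by -0.48 (adjusted p = 0.012). In the deposited signals without normalization Tnfrsf21 differed by 0.01. Tnfrsf11b, the decoy receptor osteoprotegerin, differed by -0.53 (SE 0.11, adjusted p = 0.0062). Fadd, the inhibitor Cflar (c-FLIP) and the TNF receptor Tnfrsf1a each differed by 0.00, with SE of 0.11. Tnfsf10, the ligand TRAIL, differed by 0.32 (adjusted p = 0.066). The genes that rose thus included a receptor, an initiator caspase and an inhibitor, beside a lower death receptor and a lower decoy.

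Of 18 caspases and executioners, 12 were measured, 1 rose and 0 fell (8.33% called, against 16.6% of all genes). Their median was 0.14. The gene that rose, Casp4, is an inflammatory caspase of pyroptosis rather than an executioner of apoptosis. It differed by 0.50 (SE 0.12, adjusted p = 0.015), but not without the first (0.44, adjusted p = 0.087) or the third Dahl S array (0.52, adjusted p = 0.0503). Apaf1, the scaffold of the apoptosome and a p53 target, had 6.78, 6.87 and 6.88 in Dahl S, against 6.46, 6.60 and 6.23 in Lewis. Its difference of 0.42 (SE 0.13) lay just outside the threshold, with an adjusted p of 0.051, and passed when arrays were scaled to a common median (0.43, adjusted p = 0.048). Casp9, which Apaf1 activates, differed by -0.19 (adjusted p = 0.33). Of 7 inhibitors of apoptosis, 4 were measured and 1 rose (25% called, against 16.6% of all genes). It was Birc3 (cIAP2), a target of NF-kappaB, higher by 0.47 (SE 0.14, adjusted p = 0.039). Birc3 passed without the first Lewis array, and without any other array its adjusted p was between 0.066 and 0.16.

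**Figure D4:**
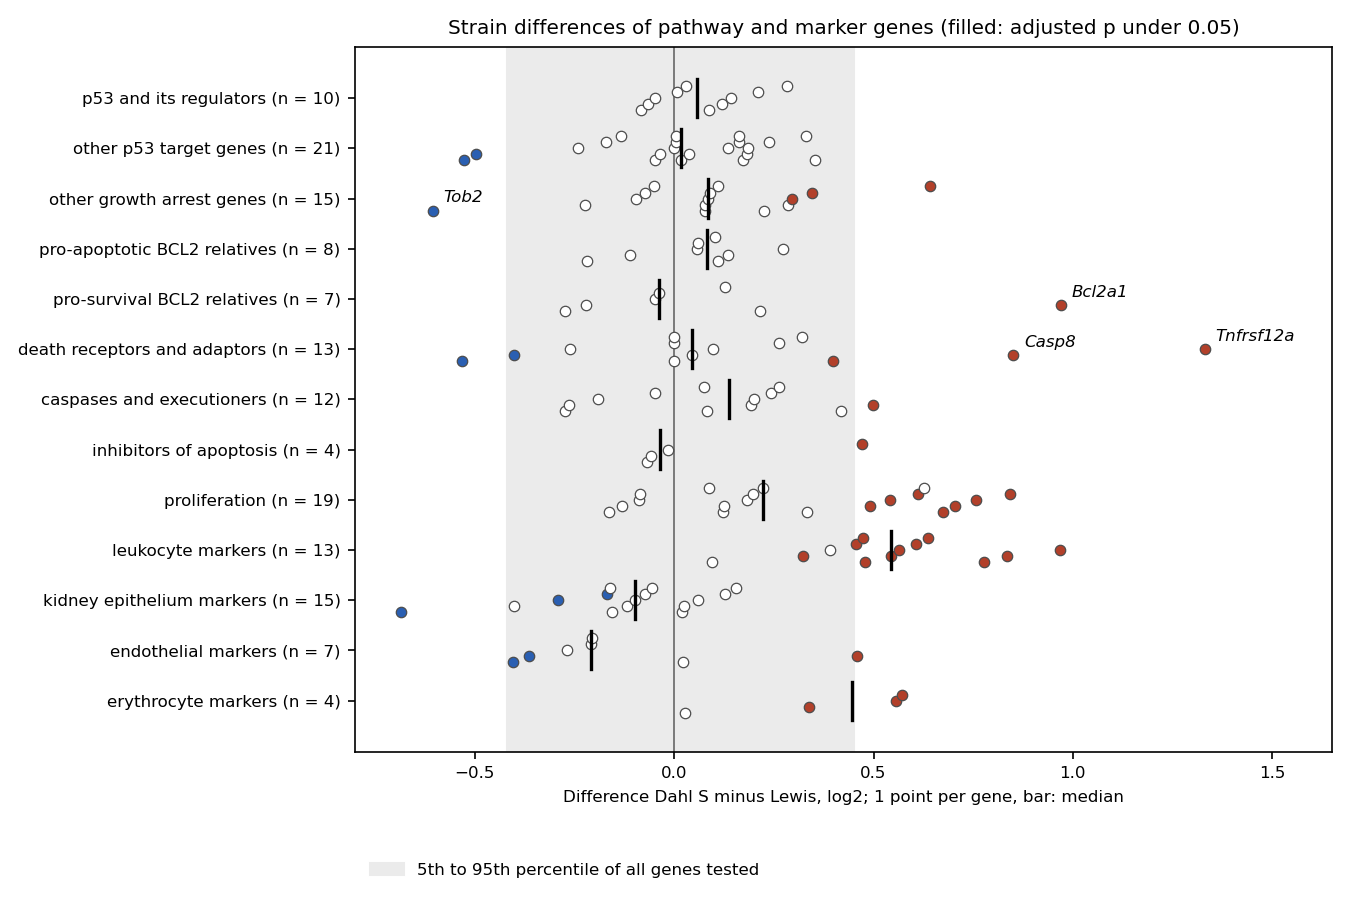
Difference in log2 signal, Dahl S minus Lewis, of the tested genes of 8 pathway lists and 5 lists of proliferation and cell type markers, 1 point per gene with the median as a black bar. Filled points passed the test, red if higher and blue if lower in Dahl S. The grey band holds the 5th to 95th percentile of all genes tested. Most pathway genes lie in the band. Tnfrsf12a (1.33), Bcl2a1 (0.97), Casp8 (0.85), Cdkn3 (0.64), Casp4 (0.50) and Birc3 (0.47) lie to its right, Tob2 (-0.61), Tnfrsf11b (-0.53), Epha2 (-0.53) and Zmat3 (-0.50) to its left, and 11 of 13 leukocyte markers are filled red.

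Beside the pathway genes that rose, most measured markers of leukocytes were higher in Dahl S. Of 20 leukocyte markers, 13 were measured, 11 rose and 0 fell, with a median of 0.54. The called share was 84.6%, against 16.6% of all genes. Ptprc (CD45) differed by 0.97 (SE 0.11, adjusted p = 7.3e-05), Aif1 of macrophages by 0.83 and Coro1a by 0.78. Their summed normalized signal was 4151 to 4203 in Dahl S and 2746 to 2969 in Lewis, and 7 were higher without the second Dahl S array. The T and B cell markers Cd3d, Cd3e, Cd8a, Cd79b and Ms4a1 and the myeloid marker Itgam were below the filter. Signals of Itgam were 2.8 to 4.6 in Dahl S and 3.5 to 4.5 in Lewis, under the lower quartile of all signals, 16.2. Those of Cd3e were 42.7 to 51.3 in Dahl S and 18.4 to 47.6 in Lewis, and those of Ms4a1 overlapped too. The strain ranges lay apart, higher in Dahl S, for Cd3d (25 to 45.6 and 3.2 to 22.1), Cd8a (22.4 to 32.6 and 4.5 to 14.4) and Cd79b (9.8 to 18.5 and 2.7 to 8.4). With no filter, normalized differences were 0.66 for Cd3d, 0.54 for Cd8a, 0.43 for Cd79b, 0.28 for Cd3e, 0.05 for Ms4a1 and -0.09 for Itgam. None passed the limma test (adjusted p between 0.16 and 0.91). Without detection calls, whether these markers were expressed cannot be told. The part of leukocytes in the differences of the pathway genes was not tested.

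Other cell types differed as well. Of the measured markers, 20% of the epithelial, 42.9% of the endothelial and 75% of the erythrocyte ones were called, against 16.6% of all genes. Of 15 measured kidney epithelium markers, 0 rose and 3 fell, with a median of -0.10. Those that fell were Slc22a6 (-0.68), Aqp3 (-0.29) and Aqp1 (-0.17). A second probe set of Aqp1 differed by -0.32 (adjusted p = 0.0018). For Slc34a1, the probe set that stood for the gene differed by -0.06 (adjusted p = 0.55), and another by -0.62 (adjusted p = 0.0022). The count of markers that fell was 9 when arrays were scaled to a common median, 0 without normalization, and 1 without a variance trend or without the third Dahl S array. Of 7 endothelial markers, 1 rose and 2 fell, and their summed signal was 2961 to 3130 in Dahl S and 3361 to 3457 in Lewis. When 1 array was left out, 0 to 1 of them were higher and 0 to 3 lower, with 0 higher without any 1 of the arrays except the second of Lewis, and 0 lower without the second Dahl S array. Of 4 erythrocyte markers, 3 rose, with a summed signal of 6129 to 6560 in Dahl S and 4419 to 5446 in Lewis, and 0 rose without the second Dahl S array. Gadd45a and all pathway genes that fell, Zmat3, Epha2, Tob2, Tnfrsf21 and Tnfrsf11b, moved in the direction of the epithelial and endothelial sums. The part of these cells in their differences was not tested.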

How the data were processed

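Biotin-labelled kidney RNA was hybridized to 1 array for each of 3 Dahl S and 3 Lewis rats. Per the labels, the authors analysed the arrays with GeneChip Operating Software 1.4, and the deposited table holds 1 linear signal intensity per probe set and array. No scaling target or detection call was given with it. Groups and replicate numbers came from the sample titles. Nothing states how the rats were kept or which arrays were processed together, and the p-values measure the spread between these 6 samples.

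From these intensities, log2(signal + 16) was quantile-normalized, 57 control probe sets were left out, and 15800 probe sets were tested, Dahl S minus Lewis, with limma 3.58.1 in R 4.3.3 (lmFit, eBayes with a variance trend, two-sided, Benjamini-Hochberg). All adjusted p-values are from limma. The pseudocount understates changes of dim genes, and the number of arrays limits the precision. Quantile normalization hides a shift shared by most genes, and strain variants under the probes were not tested.

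Names came from the platform annotation: 20826 probe sets had 1 symbol, 436 several and 9780 none, and 20764 matched the RefSeq table of GRCr8 used to update them. Probe sets of different transcripts of a gene were kept apart, and levels were not compared between probe sets. The genes and lists were chosen with earlier results of these data known. Named were all 8 genes, a fixed set of pathway genes, and from each list up to 3 genes per direction with the smallest adjusted p under 0.05. The genes most like Cdkn1a were those with the highest Pearson correlation; Fas had no tested probe set for this. Other genes were named after their values were seen: Hipk2, Aen, Dram1, Gdf15, Sfn, Bbc3, Bcl2l2, Bag1, Bag3, Bag4, Tmbim6, Tnfsf10, Fadd, Cflar, Tnfrsf1a, Mcm3 and Slc34a1. The fit was tested on simulated data. Alternatives were other normalizations, pseudocounts, filters, variance models, a replicate block and leaving out each array. Some genes of the lists are not reported here.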

Additional observations from a re-analysis of the deposited data

How the results depend on the processing

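Among the 9 tested probe sets of the p53, arrest and apoptosis genes, 0 were higher in Dahl S under every alternative run. Gadd45a was lower under all but 2 of them: 0 probe sets were lower in the deposited signals without normalization and without the first Dahl S array, so that leaving out 1 array gave 0 to 1. Without normalization, where the median of all probe sets was 0.4068, the differences of Gadd45a (0.0530), Tnfrsf21 (0.0144), Aqp3 (0.0985), Aqp1 (0.0672), Emcn (0.0450) and Pecam1 (0.0216) turned positive, and 0 of the pathway genes were lower. The count of pathway genes higher in Dahl S, 9 in all, was 3 with the stricter filter, which tests fewer genes, and 4 to 10 when 1 array was left out, with 4 without the first or the third Dahl S array and 6 without the second. The count lower, 5, was 4 to 7 with 1 array left out. Over all probe sets, 1344 higher and 1221 lower (52.4% of calls higher) became 666 and 47 (93.4%) without normalization, 840 and 793 with the stricter filter, and 660 to 722 higher and 715 to 785 lower without 1 Dahl S array.

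Arrays with the same replicate number in both strains did not deviate together (correlations -0.0452, -0.0980 and 0.113), so the numbers were not taken as pairs. With the replicate block, 1 probe set of the genes was lower and 0 were higher, and 8 pathway genes were higher and 5 lower. Not every array correlated best with its own number. The causes of these changes were not tested. Fas and the dim probe sets of Cdkn1a and Bcl2l1 lay below the filter on low values, and the table holds no measure of background for them.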
